A study of Mus musculus with 9 samples.

Results

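The genes described here are the 278 genes of mouse chromosome 6 that the arrays measured well above the dimmest signals in wild type cells. They were chosen from 18194 genes that the arrays measure through a probe set (a group of short probes for 1 transcript) with a single gene symbol, of which 993 lie on chromosome 6. A gene was taken if its mean in wild type arrays lay above 8 on the log2 scale of intensity, read from whichever of its probe sets had the greatest mean across the 9 arrays. The Hoxa genes, Cdkn1b, Aqp1, Il5ra, Mgst1, Vwf, Gata2 and Cd27 were left out by name, which removed 2 genes that would have passed. RNA came from sorted cells that the labels call FrII: positive for c-Kit, low or positive for Mac1, and negative for lineage markers and Sca-1, a progenitor fraction of the myeloid lineage, with the tissue given as blood, the strain as C57/BL6 and the age as 2 to 4 months. There were 3 arrays in each of 3 groups: wild type mice, leukaemic mice that overexpress Sox4, and K/L leukaemic mice, which carry mutations in both alleles of Cebpa, the gene of a transcription factor of granulocyte development. The extraction protocol gives the CD45.1-negative, CD45.2-positive gate for all cells, whereas the sample names give it for the leukaemic groups and not for the wild type. The series' design text sets both leukaemic groups against the wild type. The labels number a mouse for each array but do not say whether the leukaemias of a group arose separately, so a p-value here measures only how far these samples spread, which may be technical.

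A mammalian cell holds 2 copies of each autosome, and a gain or loss of a whole chromosome changes the template number of all its genes together. Transcript levels of genes on a gained chromosome tend to move with the copy number, but feedback, limiting regulators and a gene's own control can leave single genes above or below it. Gains of whole chromosomes are common in leukaemias of mouse and human. Chromosome 6 of the mouse carries genes of widely different roles, among them glycolytic enzymes, splicing factors, chromatin regulators, cytoskeletal proteins and receptors of blood cells. DNA copy number was not measured here. For scale, a ratio of 3 to 2 is 0.585 on the log2 scale.

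The wild type level and a rise over the chromosome in the K/L arrays, seen earlier in these data, chose the members, so the K/L minus wild type values are given as a description with no test. The comparison of K/L with Sox4 was not used in the choice and is tested, but it shares the K/L arrays with the comparison in which the rise was seen. The members nearest the threshold were Rnf103, at a wild type mean of 8.01 and a K/L minus wild type change of 0.42, Nop2, at 8.02 and 1.05, and Sdhaf3, at 8.06 and 0.14. Just outside lay Zfp746, at a change of 0.85, Tigar, at -0.02, and Slc25a26, at -0.17. Genes on both sides of the threshold had changes of both small and large size.

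All 278 members passed the filter on dim genes, as did 12826 genes in all. Replicates correlated at a Pearson r across genes of at least 0.991, except for wild type array 3, at 0.979 and 0.977 with the other wild type arrays. The ratio of the 3′ to the 5′ control probe sets, a sign of RNA integrity, was 2.68 to 2.91 for Gapdh in the wild type, 2.22 to 2.44 in the Sox4 group and 1.93 to 2.00 in K/L arrays, and 0.866 to 0.976 for actin over all arrays. Kit, the marker of the sort, had a mean of 9.17, 9.18 and 9.22 in the wild type, Sox4 and K/L groups, whereas Itgam, which encodes Mac1, had 4.91, 4.20 and 3.83 and was too dim for the test. The summed intensity of 5 mature neutrophil genes was 15078 to 20488 in the wild type, 3777 to 4050 in Sox4 and 171 to 295 in K/L arrays, with all 5 lower in K/L than in Sox4 by limma. In the same order of groups the sums were 860 to 1172, 1328 to 1817 and 4637 to 5342 for 4 mast cell genes (2 higher and 1 lower in K/L than in Sox4), 122 to 223, 1118 to 1850 and 153 to 163 for 4 megakaryocyte genes (3 lower) and 79.0 to 103, 359 to 429 and 82.2 to 89.2 for 3 erythroid genes (2 lower). They were 1185 to 1250, 2665 to 2874 and 1390 to 1589 for 5 macrophage genes (2 higher, 1 lower), and 173 to 196, 397 to 485 and 363 to 393 for 4 B cell genes (1 higher, 1 lower). For 4 T and NK cell genes they were 1917 to 2216, 1934 to 2320 and 1789 to 1887 (0 higher and 0 lower of 2 tested). Among the mature neutrophil genes, Ltf, Camp and Ngp had means of 5.04, 6.73 and 6.21 in the wild type and 7.37, 7.92 and 7.89 in Sox4, against the direction of the sum. The part of these differences in the results on chromosome 6 was not tested.

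Chromosome 6 genes stood higher as a body in the K/L arrays, against the wild type and against Sox4. Taking each array against the mean of each gene in the wild type, the median over members was 0.31, 0.31 and 0.32 in the K/L arrays, -0.07, -0.09 and -0.11 in the Sox4 arrays, and 0.01 in each wild type array. Over 5161 genes of the other autosomes with a wild type mean above 8, the same median was -0.05, -0.06 and -0.05 in K/L and -0.03, -0.02 and -0.04 in Sox4. On chromosome 6 the 3 K/L arrays lay far above the other 6, and on the other autosomes slightly below them. The median K/L minus wild type change over members was 0.32, with the 10th and 90th percentiles at -0.62 and 0.98, and 70.5% of members were above 0. Over the genes of the other autosomes it was -0.05, with percentiles of -0.88 and 0.65 and 45.5% above 0, and over all genes tested it was 0.06.

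Against Sox4, which the choice of genes did not use, the median over members was 0.37, with the 10th and 90th percentiles at -0.06 and 0.92. Genes of the other autosomes also spread less in this contrast, with percentiles of -0.45 and 0.43. Which contrast had the larger median depended on the choice of members. Chosen by the Sox4 mean, they had 0.42 against the wild type and 0.35 against Sox4. Taken against the Sox4 means, the K/L arrays had member medians of 0.38, 0.38 and 0.37, with 88.1%, 87.8% and 87.4% of members above the Sox4 mean, while the other autosomes had a median of -0.01 in each K/L array and 48.4%, 48.4% and 48.5% of genes above. The member median less that of the other autosomes was 0.39 ± 0.0033 (SD, n = 3) in the K/L arrays. By limma with Benjamini-Hochberg adjustment over all genes, 148 of the 278 members (53.2%) were higher in K/L than in Sox4, where 14.9% of all genes tested and 12.5% of the genes of other autosomes above 8 were, and 13 (4.68%) were lower, where 14% and 14.4% were. The 3 K/L values lay above all 3 Sox4 values in 210 members (75.5%, against 27.3% of all genes tested and 27.8% of those of other autosomes) and below them in 21 (7.55%, against 23.8% and 30%). The middle of the distribution moved, not only its upper end: the 25th percentile of the K/L minus Sox4 change over members was 0.19, and over the other autosomes -0.21.

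The counts for the other contrasts stand beside these without a reading, since the choice used the wild type arrays. Between K/L and the wild type, 143 members (51.4%, with 29% of all genes tested and 23.6% of the genes of other autosomes above 8) passed as higher and 48 (17.3%, with 21.6% and 31.5%) as lower. All 3 K/L values lay above all 3 wild type values in 162 members (58.3%, with 33% and 29%) and below them in 54 (19.4%, with 25.1% and 37.1%). Between Sox4 and the wild type, 54 members (19.4%, with 26.7% and 23.1%) passed as higher and 97 (34.9%, with 21.1% and 29.1%) as lower, and the median change was -0.10. The Sox4 values lay above all wild type values in 73 members (26.3%, with 31.1% and 29.2%) and below them in 108 (38.8%, with 25.1% and 34.7%). Chromosome 12 had medians close to those of chromosome 6, at 0.29 for K/L minus wild type, 0.39 for K/L minus Sox4 and -0.09 for Sox4 minus wild type over 200 genes. The other 18 chromosomes, X included, ranged from -0.20 to 0.05, from -0.08 to 0.02 and from -0.17 to 0.07 in the same 3 contrasts.

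**Figure D1:**
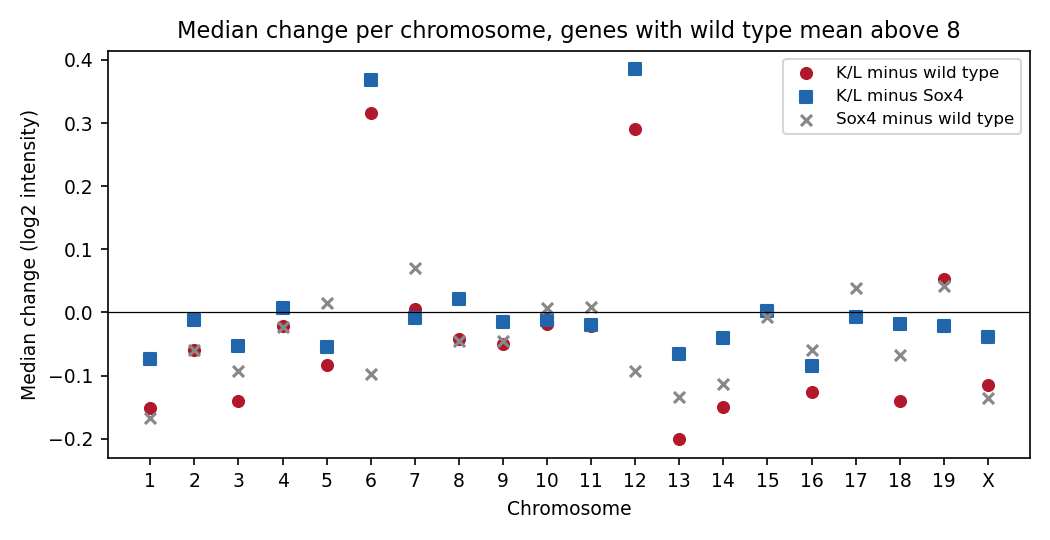
Median log2 change of genes with a wild type mean above 8 on each chromosome, with K/L minus wild type, K/L minus Sox4 and Sox4 minus wild type shown apart. Chromosomes 6 and 12 stand at 0.32 and 0.29 for K/L minus wild type and at 0.37 and 0.39 for K/L minus Sox4, above the range of the other 18 in both.

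**Figure D2:**
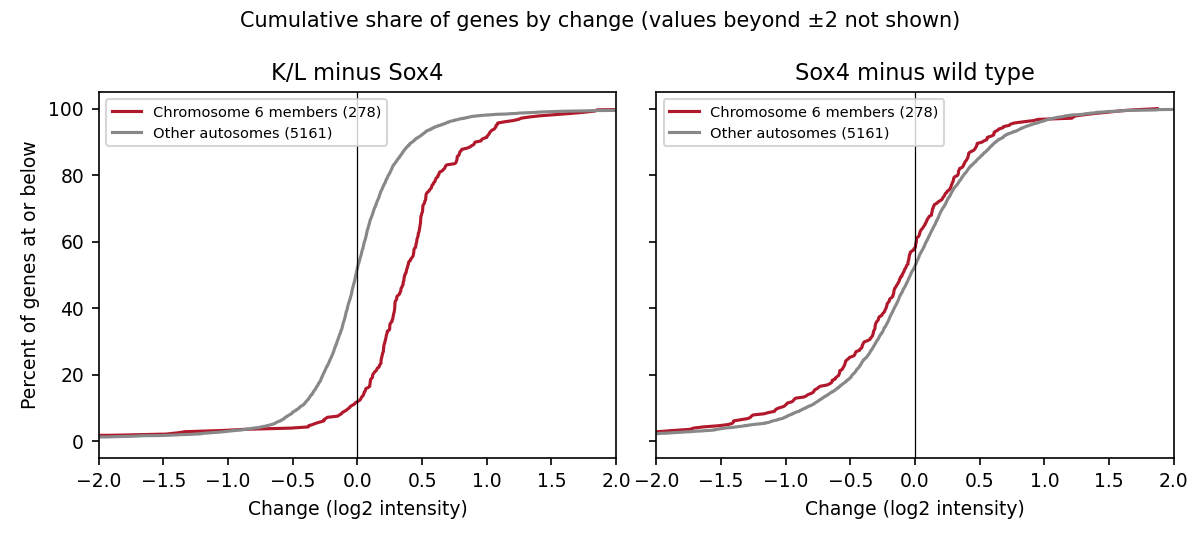
Cumulative share of genes (vertical axis) by log2 change (horizontal axis) for the 278 chromosome 6 members and for 5161 genes of other autosomes with a wild type mean above 8. The curve of the members lies to the right over most of its length for K/L minus Sox4, with medians of 0.37 and -0.01.

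A member is said here to follow the chromosome if its K/L minus wild type change lay within 0.5 of the member median, that is between -0.18 and 0.82, to exceed it if higher and to escape it if lower. By this division 178 members (64%) followed, 40 (14.4%) exceeded and 60 (21.6%) escaped. The genes of other autosomes spread around their own median in a like way, with 65.1% within 0.5 of it, 17% above and 17.9% below. The classes are cut from the contrast that chose the genes and carry no test of their own. In K/L minus Sox4, 80.2% of members lay within 0.5 of the member median, and 83.6% of the other genes within 0.5 of theirs.

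The classes differed in their Sox4 values, given here beside the shares over all genes tested of 14.9% higher and 14% lower in K/L than in Sox4. Followers had a median K/L minus Sox4 change of 0.38, with 169 of 178 above 0, 102 that passed the limma test as higher and 1 as lower. Exceeding members had a median of 0.49 in that contrast, with 27 of 40 higher and 0 lower by limma (1 lower at an unadjusted p under 0.05), but their Sox4 minus wild type median was 0.56 and in 27 of them all Sox4 values lay above all wild type values, as in 31.1% of all genes tested. Escaping members had a K/L minus wild type median of -0.58, a Sox4 minus wild type median of -0.85 and a K/L minus Sox4 median of 0.14, with 19 of 60 higher and 12 lower by limma. In 50 of the 60 all Sox4 values lay below all wild type values, as in 25.1% of all genes tested and 34.7% of those of other autosomes with a wild type mean above 8. Members were chosen for a high wild type level, and the classes and the Sox4 minus wild type change use the same wild type arrays, so nothing is read from that count. The classes and the K/L minus Sox4 change likewise use the same K/L arrays. The order of the classes in that contrast is therefore partly set in advance and is not read either. Of the 60, 38 stood above Sox4 in K/L. Of the 148 members higher in K/L than in Sox4, all 3 classes held some.

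Along the chromosome the K/L minus Sox4 shift was present from end to end. Members were put in the order of their starts and split into 10 consecutive parts of 27 or 28. The median K/L minus Sox4 change was 0.29, 0.36, 0.20, 0.44, 0.49, 0.37, 0.44, 0.29, 0.38 and 0.39 from the first part to the last. In the seventh part, from Rbsn to Marchf8, all 28 members had a positive change, and in the part with the fewest, from Tbxas1 to Snx10, 20 of 28 did. Between 11 and 19 members of each part passed the limma test as higher, and between 0 and 3 as lower. Over all genes tested 53.6% had a positive change, 14.9% passed as higher and 14% as lower. Over the genes of other autosomes above 8 these shares were 48%, 12.5% and 14.4%. A running median of 21 members lay above 0 in 258 of 258 windows, from 0.10 around Zfp775 to 0.50 around 0610030E20Rik.

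Against the wild type the shift was less even. The part medians of K/L minus wild type were 0.04, 0.44, -0.10, 0.46, 0.39, 0.35, 0.29, 0.32, 0.45 and 0.14. The low values fell in the first part, from Vps50 to Zfp800, the third, from Tbxas1 to Snx10, and the last, from Wbp11 to Resf1, which held 10, 11 and 9 escaping members, against 3 to 6 in each of the other parts. In these 3 parts the Sox4 minus wild type median was -0.40, -0.24 and -0.24, and the lowest elsewhere was -0.25 in the seventh part. The running median of K/L minus wild type was above 0 in 238 of 258 windows, with its lowest value, -0.10, around Ndufb2 and its highest, 0.58, around Ptpn6. That of Sox4 minus wild type was above 0 in 85 windows, with its lowest value, -0.43, around Ndufb2 as well. Both contrasts use the same wild type arrays, and members were chosen by their wild type level. The dips in both are therefore not independent, and nothing is read from them. The third part also had the lowest part median of K/L minus Sox4, 0.20, a contrast that does not use the wild type arrays. The cause of the low values was not tested.

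**Figure D3:**
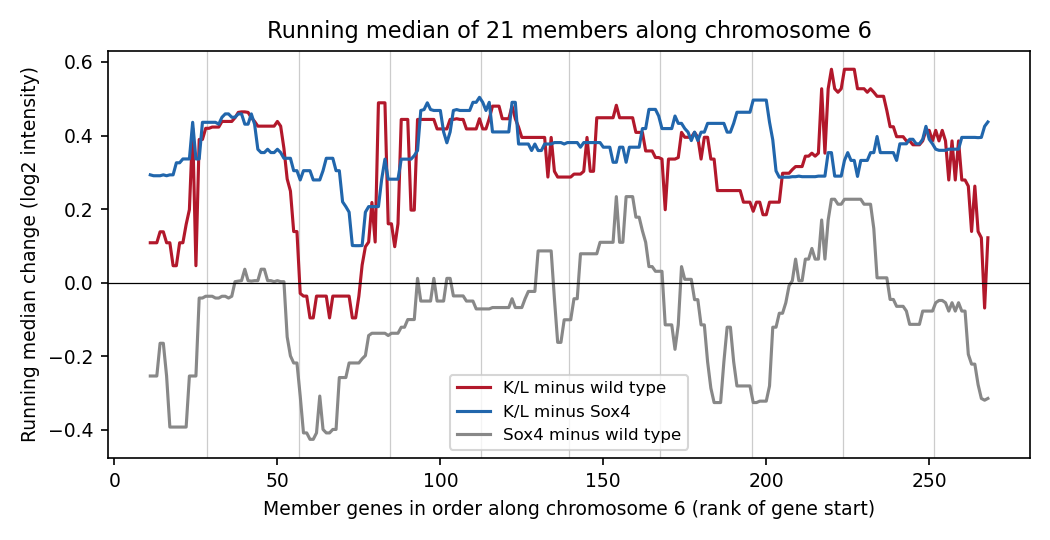
Running median of the log2 change over 21 neighbouring members (vertical axis) by the order of members along chromosome 6 (horizontal axis) for the 3 contrasts. K/L minus Sox4 stays between 0.10 and 0.50 along the whole order, whereas K/L minus wild type dips to -0.10 where Sox4 minus wild type dips to -0.43.

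Exceeding and escaping members were looked at beside their neighbours in the order of members, with no test. Of the 40 exceeding members, 30 had no exceeding neighbour among the members on either side, and the median K/L minus Sox4 change of the neighbours was 0.35. Of the 59 escaping members with a neighbour on both sides, 25 had no escaping neighbour, 34 had at least 1, and the neighbours' median was 0.38. Members far below the chromosome could lie directly beside followers or exceeding members. Smo lay between Tnpo3, at a K/L minus wild type change of 0.42, and Nrf1, at 0.39, Ldhb between Golt1b, at 0.69, and Cmas, at -0.68, and Vopp1 between Lancl2, at 1.06, and Tigd2, at 1.14.

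By wild type intensity the median shift was smallest in the dimmest and the brightest steps. The tested chromosome 6 genes other than those left out by name were grouped by 1-unit steps of wild type mean, so this includes genes below the threshold. The median K/L minus Sox4 change was 0.04 below 5, 0.10 from 5 to 6, 0.29 from 6 to 7, 0.51 from 7 to 8, 0.48 from 8 to 9, 0.28 from 9 to 10, 0.44 from 10 to 11, 0.33 from 11 to 12 and 0.06 above 12. Genes of other autosomes had medians between -0.03 and 0.06 in the same steps. Intensities of different probe sets are not levels per transcript length, so a step holds probe sets of like brightness, not genes of like abundance. Between 8 and 11 the share of members that followed was 59.6%, 58.4% and 70.4% from step to step, and above 11 no member exceeded.

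The 15 brightest members were Gapdh, Cct7, Serbp1, Hnrnpf, Snrpg, Hnrnpa2b1, Cycs, Ssbp1, Cnbp, Tmsb10, Arhgdib, Skap2, Sem1, Ldhb and Mgam. Without Ldhb and Mgam, which are described with the escapes, their K/L minus Sox4 changes lay between -0.14 and 0.35, with a median of 0.08. By limma 2 of the 13 passed as higher. That is near the share over all genes tested, 14.9%, and over the genes of other autosomes above 8, 12.5%. For Gapdh, a glycolytic enzyme, the probe set of highest mean was the array's 3′ control, at 13.19, 13.10 and 12.95 in the wild type, 13.08, 13.15 and 13.06 in Sox4, and 13.30, 13.30 and 13.36 in K/L. The K/L values lay above the other 6, by 0.22 ± 0.09 (SE) over Sox4, which did not pass the limma test (adjusted p = 0.103). Cct7, a subunit of the chaperonin that folds actin and tubulin, read 13.07, 13.00 and 13.07, then 13.19, 13.16 and 13.05, then 13.30, 13.35 and 13.36, and its difference of 0.20 from Sox4 did not pass either (limma adjusted p = 0.111). Other probe sets of these genes gave larger K/L minus Sox4 differences, 0.49 and 0.45 for the 5′ and middle Gapdh controls and 0.50 for Cct7. Over the 26 other probe sets of 12 of the 13 members the median was 0.21, from -0.20 to 0.66, with 24 above 0, so the size of the shift in the brightest step depended on the probe set. The ratio of 3′ to 5′ Gapdh controls was lowest in K/L, as given above, and its part in these differences was not tested. The highest deposited intensity was 22474.538 on the linear scale, and whether bright signals saturated was not tested.

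**Figure D4:**
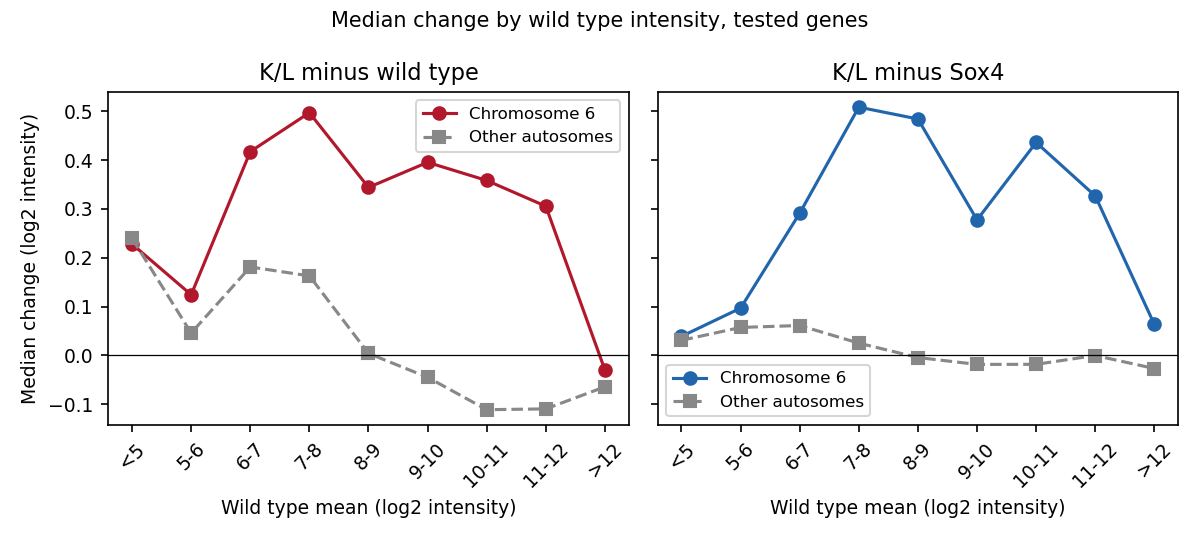
Median log2 change of chromosome 6 genes and of genes of other autosomes (vertical axis) by 1-unit step of wild type mean log2 intensity (horizontal axis), for K/L minus wild type and K/L minus Sox4. The chromosome 6 medians for K/L minus Sox4 lie between 0.28 and 0.51 from 6 to 12 and at 0.10 or less below 6 and above 12, each gene read from its probe set of highest mean.

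All the lists of roles had a positive median against Sox4, but the count that passed the test varied. Of the 278 members 159 stood in 1 of 10 lists of roles, written from general knowledge with earlier results of these data known, and all 10 lists had a positive median K/L minus Sox4 change, from 0.19 to 0.50, where the median over all genes tested was 0.03. The counts stand beside 53.2% higher and 4.68% lower over all members, and 14.9% and 14% over all genes tested. Among the 14 genes of protein synthesis and ribosome biogenesis 8 were higher in K/L than in Sox4 by limma, 0 were lower, and the median change was 0.35. Among the 18 splicing and RNA handling genes 9 were higher and 0 lower, with a median of 0.29, and among the 16 genes of DNA replication, repair and the cell cycle 9 were higher and 1 lower, with a median of 0.41. Of the 24 genes of the secretory pathway 14 were higher and 0 lower, at a median of 0.38. The 15 genes of ubiquitin, folding and autophagy had the largest median of the 10 lists, 0.50, with 12 higher and 0 lower. Of 20 signalling and cytoskeleton genes 10 were higher and 0 lower, of 17 mitochondrial proteins 6 and 0, and of 9 blood and immune cell genes 5 and 2. The 11 genes of glycolysis and metabolism had the smallest, 0.19, with 2 higher, 2 lower and 7 that did not pass, a share of higher genes near that over all genes tested. At an unadjusted limma p under 0.05, the lists with 0 lower members held 1 mitochondrial protein, Bcl2l13, and 1 secretory pathway gene, Mogs, that were lower, and 0 in the others.

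Among the followers the shift was clear in some single genes of moderate spread and did not pass the test in others. Tpi1, the glycolytic enzyme triosephosphate isomerase, read 10.72, 10.69 and 10.80 in the wild type, 11.087, 10.981 and 10.9998 in Sox4, and 11.45, 11.40 and 11.54 in K/L. The 3 groups did not overlap, and K/L exceeded Sox4 by 0.44 ± 0.09 (limma adjusted p = 0.00425). Vamp8, a SNARE protein of vesicle fusion, read 11.47, 11.52 and 11.52, then 11.53, 11.40 and 11.31, then 11.86, 11.92 and 12.06, so that wild type and Sox4 overlapped and K/L stood above both, by 0.53 ± 0.10 over Sox4 (limma adjusted p = 0.00253). Brk1, a small subunit of the WAVE complex that drives actin branching, was higher in K/L than in Sox4 by 0.41 (limma adjusted p = 0.0128, and 0.0564 without K/L array 3). Phb2, a prohibitin of the inner mitochondrial membrane, was higher by 0.43 (limma adjusted p = 0.0166, and 0.0504 to 0.0578 without K/L array 1 or 3 or Sox4 array 2 or 3) and Etv6, a transcription factor needed by blood stem cells, by 0.39 (limma adjusted p = 0.0312, lost without any 1 of the K/L or Sox4 arrays). Several other followers, such as Rab7, a late endosomal GTPase, at 0.22, and Mcm2, a subunit of the replicative helicase, at 0.29, had changes of the same direction that did not pass (limma adjusted p = 0.0974 and 0.0939). Serbp1, Sec61a1, Ndufa4 and Luc7l2, bright followers close to the member median, were higher by 0.06 to 0.18 and did not pass either (limma adjusted p = 0.202 to 0.644).

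Some chromatin regulators were higher in K/L than in Sox4 while K/L stood near the wild type. Of 15 members in the list of chromatin and transcription regulators 6 were higher by limma, 0 were lower and 9 did not pass, with a median of 0.36. Over all members 53.2% were higher, and over all genes tested 14.9%, so the list held no larger share than the members as a whole. Its K/L minus wild type median was 0.11 and its Sox4 minus wild type median -0.41. Against the wild type 9 of the 15 followed the chromosome, 2 exceeded it and 4 escaped. Ezh2, the catalytic subunit of the Polycomb complex that methylates histone H3, read 10.94, 10.83 and 11.03 in the wild type, 10.33, 10.34 and 10.38 in Sox4, and 10.83, 10.89 and 10.81 in K/L. Sox4 lay below both other groups, which overlapped, and K/L exceeded it by 0.49 ± 0.09 (limma adjusted p = 0.0025). Phf14, a PHD finger protein, was higher in K/L than in Sox4 by 0.66 (limma adjusted p = 0.000509, and 0.168 with the mean of all its probe sets, 1 of which gave -0.69), at 0.11 over the wild type. Xpc, which recognises DNA damage for excision repair and stood in the repair list, had a like pattern, at -0.03 against the wild type and 1.06 ± 0.16 against Sox4 (limma adjusted p = 0.00093).

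The members that exceeded the chromosome most were mainly ones that Sox4 arrays also showed above the wild type, on the wild type arrays that both contrasts share. Ybx3, a cold-shock domain protein that binds RNA and DNA, was the farthest, at 11.16, 11.14 and 9.85 in the wild type, 12.61, 12.60 and 12.55 in Sox4, and 12.70, 12.75 and 12.74 in K/L. Both leukaemias lay above the wild type, among whose arrays the third was far below the others, and the K/L minus wild type change was 2.02, or 1.59 without wild type array 3. K/L and Sox4 differed by 0.15 ± 0.29, which did not pass (limma adjusted p = 0.764). Nup210, a nuclear pore protein, with changes of 1.80 in K/L and 1.57 in Sox4 against the wild type, Aebp2, a Polycomb partner, with 1.68 and 1.32, Mpp6, a membrane scaffold protein, with 1.59 and 1.49, Snd1, an RNA-binding nuclease, with 1.37 and 1.25, and Gsdme, a gasdermin, with 1.32 and 1.39, also stood higher in both leukaemias than in the wild type. None of the 5 passed the limma test between K/L and Sox4 (adjusted p = 0.184 to 0.866 over the 5), and without wild type array 3 their K/L minus wild type changes were 0.96 to 1.54.

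Of the other members in this upper range, K/L stood below Sox4 in 1 and above it in others. Mogs, the glucosidase that trims N-linked glycans, read 8.20, 8.33 and 8.08 in the wild type, 9.91, 9.89 and 9.89 in Sox4, and 9.52, 9.68 and 9.72 in K/L. It was the one of the 12 farthest exceeding members that stood lower in K/L than in Sox4 on every array, at -0.26 ± 0.10, which did not pass the test (limma adjusted p = 0.082). Polr1a, the largest subunit of RNA polymerase I, was 1.75 over the wild type (1.53 without wild type array 3) and 0.53 ± 0.16 over Sox4 (limma adjusted p = 0.036, lost in 7 alternatives, among them without any 1 of the K/L or Sox4 arrays). Cops7a, a subunit of the COP9 signalosome, was 1.40 over the wild type and 0.45 ± 0.11 over Sox4 (limma adjusted p = 0.0148, and 0.0592 without K/L array 2 or 0.0632 without Sox4 array 1). Chd4, a remodelling ATPase that only the escaping gene Acrbp separates from Cops7a among the members, was 1.19 over the wild type.

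A smaller group exceeded the chromosome in K/L alone of the leukaemias. Ptpn6, the phosphatase SHP-1 that restrains cytokine and immune receptor signalling, read 10.43, 10.41 and 10.44 in the wild type, 10.27, 10.27 and 10.22 in Sox4, and 11.66, 11.66 and 11.67 in K/L. The arrays of each group lay close together, and K/L stood above Sox4 by 1.41 ± 0.08 (limma adjusted p = 9.2e-07). Gimap9, a GTPase of the immunity-associated family, read 8.33, 8.12 and 8.56, then 6.78, 7.29 and 6.62, then 9.55, 9.63 and 9.88, with Sox4 lowest and K/L highest, and the difference of 2.79 ± 0.18 between them (limma adjusted p = 2.47e-06) was the largest rise over Sox4 among the members that passed the test. Klrb1f, a lectin-like receptor known from NK cells, read 10.15, 10.38 and 8.91, then 9.65, 9.42 and 9.47, then 11.11, 10.97 and 11.07. Its K/L minus wild type change was 1.24, and 0.79 without wild type array 3, while its rise over Sox4 was 1.53 ± 0.31 (limma adjusted p = 0.00444). The summed T and NK cell genes were lower in K/L than in either other group, but 0 of the 2 genes tested passed against Sox4 by limma. Nkg7, the brightest of them, had means of 10.94, 11.02 and 10.80 in the wild type, Sox4 and K/L groups. Cd3e, Cd3g and Ncr1 had higher means in K/L than in the wild type. The part of these genes in the result on Klrb1f was not tested.

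The other members among the 8 largest characterised rises over Sox4 stood less far above the wild type than Ptpn6. Camk1, a calcium and calmodulin-dependent kinase, read 8.19, 8.16 and 8.15 in the wild type, 7.15, 6.97 and 7.15 in Sox4, and 8.93, 8.99 and 8.87 in K/L, and was a follower at 0.77 over the wild type and 1.84 ± 0.09 over Sox4 (limma adjusted p = 4.01e-07). Retsat, which saturates retinol, rose by 1.75 over Sox4 (adjusted p = 2.24e-06) and Bmt2, a sensor of S-adenosylmethionine, by 1.65 (adjusted p = 1.88e-05), with Sox4 below the wild type in both. Lrmp, a membrane protein of lymphoid cells, at 1.33 (adjusted p = 1.09e-05), and Mkrn1, a ubiquitin ligase, at 1.27 (adjusted p = 1.23e-05), had Sox4 values closer to the wild type, at -0.32 and -0.15. The 4 other probe sets of Mkrn1 were all higher in K/L than in the wild type, by 0.43 to 1.11.

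The upstream sequences of Ptpn6 and Ybx3 are shown because these 2 genes exceeded the chromosome in different ways, the first in K/L alone and the second in both leukaemias. They are the 250 bases before the gene start in the RefSeq promoter of assembly GRCm38.p6, read 5′ to 3′ on the strand of the gene, at chr6:124738710-124738959 (minus strand) for Ptpn6 and chr6:131388451-131388700 (minus strand) for Ybx3. Capitals mark matches on either strand of the GC box core GGGCGG, of the NF-Y site core CCAAT, of the TATA box letters TATAAA and of TTGCNNAA, letters that occur in C/EBP sites. A GC box on the opposite strand appears as CCGCCC.
Ptpn6: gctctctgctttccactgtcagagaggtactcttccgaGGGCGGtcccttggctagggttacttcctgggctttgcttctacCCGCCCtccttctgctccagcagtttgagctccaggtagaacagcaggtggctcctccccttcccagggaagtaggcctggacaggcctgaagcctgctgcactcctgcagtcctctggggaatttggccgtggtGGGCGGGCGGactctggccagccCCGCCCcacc
Ybx3: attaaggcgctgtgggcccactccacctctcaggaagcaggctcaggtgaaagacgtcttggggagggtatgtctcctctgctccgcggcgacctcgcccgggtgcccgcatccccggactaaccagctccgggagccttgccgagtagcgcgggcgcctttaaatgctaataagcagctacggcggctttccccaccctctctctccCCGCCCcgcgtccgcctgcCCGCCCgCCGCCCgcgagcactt
The Ptpn6 stretch held 5 matches of GGGCGG, of which 2 overlap each other, with 7 CG dinucleotides. That of Ybx3 held 3 such matches with 25 CG dinucleotides. Neither held a match of the other motifs.

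Escaping members with the deepest change were low in K/L against both other groups. Smo, the membrane protein that transmits Hedgehog signals, read 9.93, 10.03 and 9.66 in the wild type, 9.35, 8.81 and 9.12 in Sox4, and 3.91, 3.48 and 4.55 in K/L, where the last values approach the deposited floor of 3. The groups were fully apart, with a K/L minus wild type change of -5.89 and a K/L minus Sox4 change of -5.11 ± 0.25 (limma adjusted p = 3.57e-07). Ldhb, the lactate dehydrogenase subunit of oxidative tissues, read 11.94, 12.21 and 12.35, then 10.16, 10.34 and 10.38, then 6.73, 6.47 and 6.58. Its levels went down from wild type through Sox4 to K/L without overlap, with -3.70 ± 0.13 between K/L and Sox4 (limma adjusted p = 4.26e-08). The 3 other probe sets of Ldhb gave -5.76, -5.21 and -3.90 in the same contrast.

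Mgam, a maltase-glucoamylase of the gut that neutrophils also express, and Clec5a, a myeloid lectin receptor, are neighbours on the chromosome and were both low in K/L. Mgam read 12.50, 12.44 and 12.14 in the wild type, 10.82, 10.86 and 10.85 in Sox4, and 7.21, 6.56 and 6.28 in K/L. Its groups were apart, and the K/L minus Sox4 change was -4.16 ± 0.21 (limma adjusted p = 4.01e-07). Clec5a read 9.001, 8.86 and 9.75, then 8.60, 8.37 and 8.39, then 6.99, 7.13 and 7.25, with -1.33 ± 0.21 between K/L and Sox4 (limma adjusted p = 0.000894). The summed mature neutrophil genes had the same order of groups, at 15078 to 20488, 3777 to 4050 and 171 to 295. Of the 5 genes only S100a8 and S100a9 had this order. Ltf, Camp and Ngp had higher means in Sox4 than in the wild type. The part of these genes in the 2 results on Mgam and Clec5a was not tested. In sorted bulk cells, fewer cells of a type and less RNA per cell cannot be told apart.

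The other escaping genes low against both groups had less known roles. Ccdc91, a protein of Golgi transport, read 8.09, 8.03 and 8.38 in the wild type, 7.70, 7.998 and 8.13 in Sox4, and 4.30, 4.85 and 4.57 in K/L, so that wild type and Sox4 overlapped and the K/L minus Sox4 change was -3.37 ± 0.17 (limma adjusted p = 4.12e-07). Both Smo and Ccdc91 had K/L means below the 40th percentile of the K/L arrays (4.84 to 4.86), the level used here to leave out dim genes, so the sizes of their falls are lower bounds. The 2 other probe sets of Ccdc91 gave -2.85 and -3.93. Vopp1, a vesicular protein, was -2.66 against the wild type and -1.39 ± 0.15 against Sox4 (limma adjusted p = 8.33e-05), while both its neighbours exceeded. Ppp1r9a, an actin-binding regulator of protein phosphatase 1, was -1.48 ± 0.32 against Sox4 (limma adjusted p = 0.00686, and 0.0583 with the mean of all its probe sets). Tmem176b, a membrane protein of dendritic and other myeloid cells, stood highest in Sox4, with 8.84, 8.56 and 9.61 in the wild type, 10.25, 10.17 and 10.23 in Sox4, and 8.38, 8.34 and 8.23 in K/L.

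The K/L minus Sox4 difference of Tmem176b was -1.90 ± 0.22 (limma adjusted p = 0.000135). The receptor tyrosine kinase gene Met, chosen for mention after its values were seen, had the same order, with 9.17, 8.96 and 9.19 in the wild type, 9.77, 9.64 and 9.74 in Sox4, and 8.71, 8.81 and 8.49 in K/L, and a K/L minus Sox4 change of -1.05 ± 0.11 (limma adjusted p = 8.96e-05). Apobec1, a cytidine deaminase of RNA, was lower in K/L, at -0.52 (adjusted p = 0.0123, lost without K/L array 2 or Sox4 array 1). The other 3 of the 13 members lower in K/L than in Sox4, given after their values were seen, were 1810044D09Rik at -0.87, with its other probe set at 1.33 in the opposite direction, Rhno1, a protein of the DNA damage checkpoint, at -0.38, and Rpia, an enzyme of the pentose phosphate pathway, at -0.38. Rpia was the 1 follower among the 13.

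Further escapes among the named genes had low values in both leukaemias. They entered through their wild type level, so their standing below it in the other groups is given as values only. Tmem229a read 8.34, 8.31 and 8.39 in the wild type, 4.14, 4.26 and 4.27 in Sox4, and 4.30, 4.41 and 4.25 in K/L, where all 6 leukaemic values lay below the 40th percentile of their arrays (4.84 to 4.94), so the leukaemias could not be compared. Far2, which reduces fatty acyl-CoA to alcohols, read 11.86, 11.85 and 11.82, then 9.10, 9.37 and 9.06, then 10.35, 10.01 and 10.09, so that K/L lay between the other groups, 0.97 ± 0.12 above Sox4 (limma adjusted p = 0.00021). Acrbp, a protein known from sperm acrosomes, was -2.50 in Sox4 and -1.59 in K/L against the wild type, 0.91 ± 0.23 higher in K/L (limma adjusted p = 0.0154, and 0.0598 without K/L array 1 or 0.0556 without Sox4 array 2). Asprv1, a protease known from skin and neutrophils, was -3.78 and -2.77, and 1.01 ± 0.33 higher in K/L (limma adjusted p = 0.0456, lost in 8 alternatives), with a Sox4 mean of 4.56 below that percentile. Igf2bp3, an RNA-binding protein of fetal cells, was -1.64 in K/L against the wild type, with -0.29 between K/L and Sox4 (limma adjusted p = 0.264). The uncharacterised 2310001H17Rik, outside the rule for named genes and given after its values were seen, rose from a Sox4 mean of 4.57 by 1.85 in K/L and escaped at -1.58 against the wild type. The summed mature neutrophil genes were also lower in both leukaemias than in the wild type, as were S100a8 and S100a9. Ltf, Camp and Ngp had higher means in Sox4 than in the wild type. The part of these genes here was not tested.

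**Figure D5:**
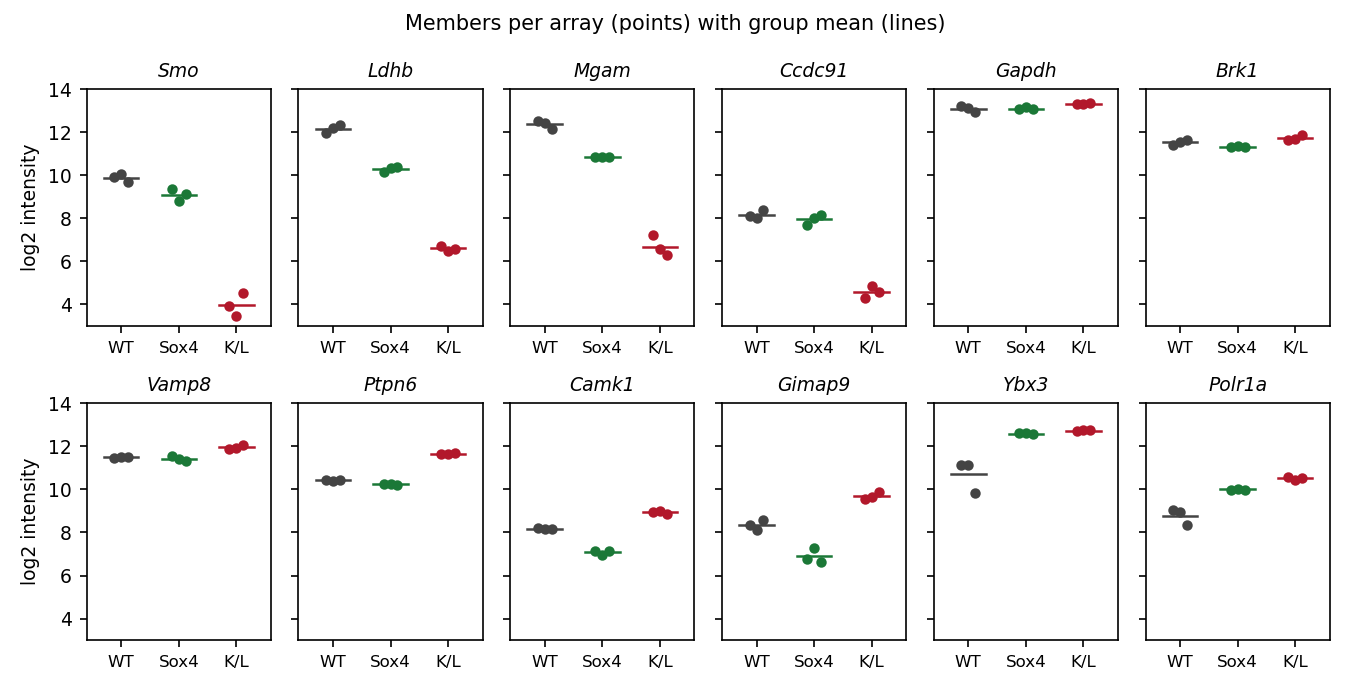
Log2 intensity on each of the 9 arrays (points, by group) with the group mean as a line, for 12 members named in the text, 1 panel per gene. The 3 K/L points of Ptpn6 lie at 11.66 to 11.67, above all others, those of Ybx3 lie beside Sox4, and those of Smo lie at 3.48 to 4.55, below all others.

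The upstream sequences of Smo and Ldhb are shown because these genes were among the 3 farthest below the wild type in K/L. They are given in the same way, from GRCm38.p6 at chr6:29735247-29735496 (plus strand) for Smo and chr6:142507958-142508207 (minus strand) for Ldhb, with capitals for matches of the same 4 motifs.
Smo: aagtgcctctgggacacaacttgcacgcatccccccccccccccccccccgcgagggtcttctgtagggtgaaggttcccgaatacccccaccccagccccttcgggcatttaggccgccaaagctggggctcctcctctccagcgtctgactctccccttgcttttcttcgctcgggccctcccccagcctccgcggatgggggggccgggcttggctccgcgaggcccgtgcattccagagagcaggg
Ldhb: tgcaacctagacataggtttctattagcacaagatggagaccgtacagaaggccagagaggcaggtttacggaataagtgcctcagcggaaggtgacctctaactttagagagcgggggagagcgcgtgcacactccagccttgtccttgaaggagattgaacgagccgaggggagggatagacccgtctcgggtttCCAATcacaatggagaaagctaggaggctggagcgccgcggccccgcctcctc
The Smo stretch held 0 matches, which says only that these letters are not in this window, and 15 CG dinucleotides, with a GC share of 68.4%. The Ldhb stretch held 1 match of CCAAT and 14 CG dinucleotides, with a GC share of 56.4%.

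A RefSeq promoter window of 300 bases, from 250 before to 50 after the start, was found for 248 of the 278 members. Only the first listed promoter of each gene was used, here and for the sequences shown, so other promoters of a gene were not looked at. GGGCGG was present on either strand in 59.9% of 157 followers, 82.4% of 34 exceeding and 61.4% of 57 escaping members, and in 67.5% of 4233 genes of other autosomes with a wild type mean above 8 and 35.9% of all 27025 promoters. CCAAT was present in 37.6%, 32.4% and 31.6% of the 3 classes, with 38.5% of those genes of other autosomes and 37.9% of all promoters. TATAAA was present in 7.01%, 5.88% and 14%, with 6.35% of those genes and 14.2% of all promoters. TTGCNNAA was present in 8.92%, 17.6% and 7.02%, which are 14, 6 and 4 promoters, with 7.82% of those genes and 10.8% of all. The median GC share was 59%, 63.3% and 57.3%, where those genes of other autosomes had 61.7% and all promoters 52.7%. These are descriptions of letters in a window, with no test between classes.

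How far a member departed from its own chromosome was tested by taking the median K/L minus Sox4 change of each chromosome from its genes, a test chosen after the data had been seen. By limma on these differences 42 members (15.1%) stood above and 39 (14%) below the chromosome 6 median, where 13.3% of 12743 genes stood above their own chromosome's median and 13.9% below, and 11.8% and 12.6% of those of other autosomes with a wild type mean above 8. These shares are near the background, so as a body the members scattered around their chromosome's shift about as other genes scattered around theirs. Of the 42 above, 23 were followers, 12 exceeding and 7 escaping members, and of the 39 below, 16, 1 and 22. The classes use the same K/L arrays as this contrast, so that split is partly set in advance and is not read. Gimap9, at 2.42 above the chromosome median (limma adjusted p = 7.04e-06), and Ptpn6, at 1.04 (adjusted p = 7.47e-06), were among those above. Mogs was 0.63 below by the same measure (adjusted p = 0.00115), the 1 exceeding member below, while Ybx3 and Nup210 were not past the test. Tmem229a was among the 39 below as well, but its leukaemic values were too dim for the leukaemias to be compared, as given above. Of the 13 brightest members without Ldhb and Mgam, 8 were below, each read from its probe set of highest mean. The 26 other probe sets of 12 of them had a median K/L minus Sox4 change of 0.21, where the 13 themselves had 0.08. The share among equally bright genes of other autosomes was not counted.

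Probe sets not used for the choice gave a further readout of the same arrays. There were 343 other probe sets with a mean above 6, for 183 of the members, and 73 members had only 1 probe set. Their median change was 0.25 for K/L minus wild type and 0.35 for K/L minus Sox4, against -0.12 and -0.03 for 5725 other probe sets of genes on the other autosomes. Of the 343, 278 were above 0 against Sox4, where 2637 of the 5725 on the other autosomes were. The sign of the member's own K/L minus Sox4 change was shared by 284 of the 343, a count not made for the other autosomes. The 41 other probe sets of exceeding members had a K/L minus wild type median of 0.88, the 233 of followers 0.35 and the 69 of escaping members -0.47.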

How the data were processed

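Total RNA of sorted FrII cells was hybridised to Affymetrix mouse arrays, 3 per group. The authors deposited 1 table of intensity values on a linear scale for 45101 probe sets, with a floor of 8. The submitters' processing notes name RMA (version and scaling: not given in the sources used here). RMA summarises and quantile-scales probes across arrays, so a change is relative to the bulk of probe sets. The deposited intensity values were log2 transformed here (floor of 3) and not rescaled. Scan dates and batches were not analysed here. Array medians were 5.53 to 5.55 in the wild type, 5.52 to 5.54 in Sox4 and 5.43 to 5.46 in K/L, so the K/L arrays had the lowest.

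Names of probe sets came from the platform's annotation, which may be old: 34958 had 1 symbol, 932 several and 9211 none. Of the first, 34754 matched the GRCm38.p6 gene table of RefSeq by gene ID, which gave chromosomes and gene order. The deposited file names no build, so gene coordinates are given only for RefSeq promoters. Each of 18194 genes was read from its probe set of highest mean over 9 arrays. Tests ran on the 12826 genes that lay above the array's 40th percentile on 3 or more of the 9 arrays.

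Differences were fitted with limma 3.58.1 under R 4.3.3 to the 9 arrays together, with 6 residual and 3.71 prior degrees of freedom and Benjamini-Hochberg adjustment over all tested genes at 0.05. A permutation test of 3 against 3 arrays cannot go below 0.1. The code was tested on simulated data. Same-numbered arrays did not pair: over 9 pairs their deviations from group means correlated at -0.02 to 0.08.

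The members and lists were chosen with earlier results of these data known. Genes were named by a rule: the 12 farthest exceeding and escaping members with groups apart, the 10 followers of highest wild type mean within 0.15 of the median, up to 4 of highest wild type mean per role list, the 8 largest rises and falls against Sox4, the ends of each part of the chromosome, the genes nearest the threshold, and neighbours. Uncharacterised transcripts (names in Rik or Gm, 10 members) were left out of the rule. Alternatives covered scaling, probe set choice, the threshold, the band, the filter, the fit and each array left out.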

Additional observations from a re-analysis of the deposited data

How the results depend on the processing

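No alternative changed the sign of the K/L medians, and 3 arrays a group limit the precision of single genes. Centring each array on its median gave member medians of 0.41 (K/L minus wild type) and 0.44 (K/L minus Sox4), and quantile normalization 0.33 and 0.35. With the mean of all probe sets, K/L minus wild type was 0.31, Sox4 minus wild type -0.12, K/L minus Sox4 less other autosomes 0.40, with 7 members lower than Sox4 and 25 exceeding. A wild type threshold of 7 gave 0.36, 0.40 and -0.063 (K/L minus wild type, K/L minus Sox4, Sox4 minus wild type), 0.41 less other autosomes and 66 exceeding. A threshold of 9 gave 0.30, 0.33 and -0.064, 0.34 less other autosomes, 91 members higher than Sox4, 31 lower than wild type, 26 exceeding and 39 escaping. Choosing members by the mean over 9 arrays gave 0.42, 0.39 and 0.0026, and by the Sox4 mean 0.42, 0.35 and 0.041, with 20 lower than Sox4 and 30 lower than wild type, so the sign of Sox4 minus wild type follows the group that chose the members. Means over members were 0.14, 0.33 and -0.19, with 72 exceeding. Bands of 0.3 and 0.75 gave 72 and 19 exceeding. Against the own chromosome median, a setting added after seeing the data, 42 members were higher and 39 lower.

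Leaving out 1 array gave medians of 0.30 to 0.32, 0.36 to 0.38 and -0.13 to -0.080, 0.38 to 0.39 less other autosomes, 110 to 183 members higher and 11 to 17 lower than Sox4, 126 to 145 higher and 40 to 49 lower than wild type, and 173 to 183 following, 40 to 43 exceeding and 55 to 62 escaping. With the replicate number as a block, 139 members were higher and 13 lower than Sox4, where the fit without the block gave 148 and 13, and the numbers do not pair the arrays. Over the 74 named genes, 1227 of 1332 K/L minus Sox4 values kept direction and side of the threshold, 58 were no longer past it, 46 newly passed and 1 reversed. With the mean of all probe sets, Zc3hav1 K/L minus Sox4 became 0.41 (limma adjusted p = 0.0369), Luc7l2 K/L minus wild type -0.046 and Cnbp K/L minus wild type -0.020. The cause of these changes was not tested.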
